A study of Rattus norvegicus with 9 samples.

Results

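A set of 10 genes that carry procollagen from its synthesis to the crosslinked fibril was described in RNA from rat femoral fractures. The set held Creb3l1, P4ha1, Plod2, Crtap, Serpinh1, Fkbp10, Mia3, Sec24d, Bmp1 and Lox, out of 35360 genes in the deposited table. The set was chosen by values of the same libraries, because the read counts of Creb3l1, Serpinh1 and Bmp1 had been lower in ALN+Gel. Whether they were lower than in Gel, in Mg-ALN@Gel or in both is not stated. The comparison of ALN+Gel with Gel is given for the set as a description without a test. Calls in Mg-ALN@Gel relative to ALN+Gel rest on the same low values and are no support for a difference. Of the 10 symbols, 8 matched a protein-coding row by its gene name. The other two were found through annotation. The locus AABR07021988.1 is described in the deposited table by its homology to mouse Mia3. Crtapl1, the name of the other locus, is a RefSeq synonym of Crtap. Counts over the set below are over the 8 genes matched by name, and these 2 loci are given beside them. All 10 loci passed the filter on low counts.

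The tissue was the middle end of the femoral fracture of rats. It was sampled in 3 groups of 3 libraries. The Mg-ALN@Gel group received a gel carrying a metal-organic framework of magnesium and the bisphosphonate that the labels call ALN. The ALN+Gel group received ALN with the gel, and the Gel group, labelled as the control, received the gel alone. Strain, sex, age, dose and time after fracture are not given in the labels, nor is it said that each library came from a separate animal, so each p-value measures only how these libraries spread, part of which may be technical. The series concerns bone fibrosis after bisphosphonate and its antagonism by magnesium ions.

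Fibrillar collagen is made as a procollagen chain that enters the endoplasmic reticulum. There its prolines and lysines are hydroxylated, the chains fold into a triple helix with the help of dedicated chaperones, and the long rigid molecule leaves in enlarged COPII carriers. Outside the cell the propeptides are cut off and the fibrils are crosslinked. In bone this route is known from inherited brittle bone disease, in which loss of CREB3L1, SERPINH1, FKBP10, CRTAP, PLOD2 or BMP1 weakens the matrix in humans.

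The upstream sequences of 3 members are shown because, of those searched, these held letters of a stress or hypoxia motif. Of the 10 members, 6 had an entry in a table of RefSeq promoters of assembly GRCr8 (Creb3l1, P4ha1, Plod2, Crtap, Serpinh1 and Mia3), and the 250 bases before each gene start were searched on both strands. Each sequence runs 5′ to 3′ on the strand of its gene. Capitals mark GAANNTTC, the paired unit of a heat shock element, in Serpinh1 (chr1:163062977-163063226, minus strand). They mark TGACGTG, the core bound by factors of the unfolded protein response, in Mia3 (chr13:97519620-97519869, minus strand). In Plod2 (chr8:101964068-101964317, plus strand) they mark ACGTG, the core of the hypoxia response element, read on the opposite strand.
Serpinh1: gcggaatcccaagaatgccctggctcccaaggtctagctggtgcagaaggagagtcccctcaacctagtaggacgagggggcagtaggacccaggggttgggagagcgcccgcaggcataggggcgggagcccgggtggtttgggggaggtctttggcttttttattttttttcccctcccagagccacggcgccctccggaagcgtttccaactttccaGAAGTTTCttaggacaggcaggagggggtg
Mia3: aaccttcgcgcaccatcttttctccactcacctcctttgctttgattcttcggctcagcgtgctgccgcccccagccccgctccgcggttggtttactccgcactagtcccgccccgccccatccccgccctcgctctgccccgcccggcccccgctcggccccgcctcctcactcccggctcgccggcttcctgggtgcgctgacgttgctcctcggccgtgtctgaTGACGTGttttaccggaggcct
Plod2: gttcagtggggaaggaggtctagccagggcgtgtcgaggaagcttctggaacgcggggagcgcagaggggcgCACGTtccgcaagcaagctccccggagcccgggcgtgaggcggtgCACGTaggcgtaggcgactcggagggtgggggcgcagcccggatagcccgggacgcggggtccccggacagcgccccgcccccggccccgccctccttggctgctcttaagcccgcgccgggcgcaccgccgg
The heat shock unit began 30 bases before the start of Serpinh1, and a second copy in lower case began 212 bases before that of Plod2. Letters of this unit were present in 7.23% of the 33469 promoters in the table. TGACGTG began 22 bases before the start of Mia3 and was present in 1.54% of promoters. It contains ACGTG, which was present in 16.6% of promoters and in Plod2 began 178 and 133 bases before the start. The bipartite endoplasmic reticulum stress element (CCAAT, 9 free bases, CCACG) was present in 0.0657% of promoters and in none of the 6 members. These matches describe letters in these windows.

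Library totals lay between 13388689 and 18763270 counts, and each member had between 353 and 34561 counts in a library, so counting error was small beside the spread between libraries. Levels are CPM (counts scaled to a common library size, by TMM), and the FPKM values (scaled for gene length too) that the authors deposited are used where genes are set beside each other. The share of mitochondrial transcripts varied widely. It was 11.2%, 10.6% and 31.6% for Mg-ALN@Gel, then 39.5%, 15.6% and 7.61% for ALN+Gel, and 17.5%, 5.40% and 4.16% for Gel. ALN+Gel library 1, with the highest share, was the lowest of its group for 9 of the 10 loci, against 37.4% of all tested genes. Gel library 1 was the highest of its group for 7 of the 10 loci, against 43.7% of all tested genes. In bulk RNA, fewer cells of a type and less RNA per cell cannot be told apart.

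Across the set, ALN+Gel had the lowest mean for 9 of the 10 loci. Gel had the highest mean for 7, and Mg-ALN@Gel for Crtap, Serpinh1 and Lox. In FPKM averaged over the 9 libraries, Serpinh1 led with 765, which placed it 112th of 15460 tested genes. Plod2 (125), Lox (117) and Fkbp10 (108) formed a middle tier, followed by Bmp1 (74.2), P4ha1 (58.4), Creb3l1 (57.6) and Crtap (42.0). The export genes were lowest, with 31.8 for Sec24d and 17.6 for Mia3. These are levels per length, and no neighbours in that order were tested against each other.

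**Figure D1:**
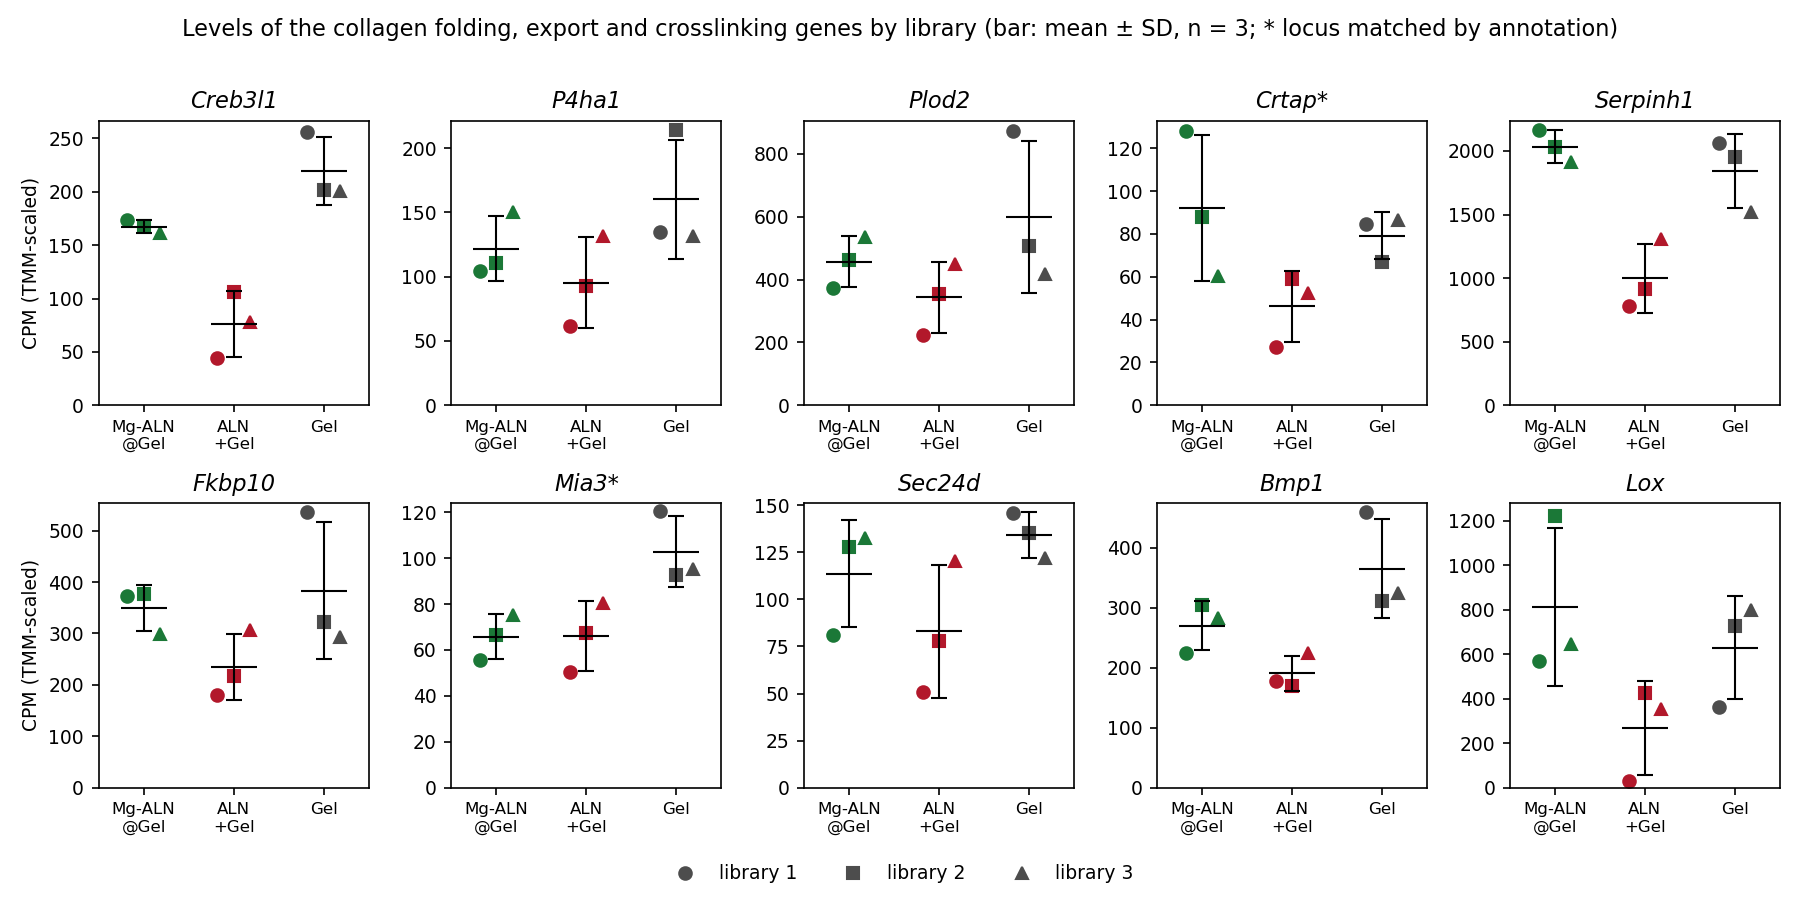
Levels of the 10 loci in CPM (vertical axis, from 0) in the 3 libraries of each group, with the mean and SD (n = 3) as bars and the library number as the symbol. Creb3l1 stands between 161 and 173 CPM in Mg-ALN@Gel, between 44.1 and 106 CPM in ALN+Gel and between 200.5 and 256 CPM in Gel.

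Creb3l1 encodes a transcription factor held in the endoplasmic reticulum membrane that is cut free to switch on collagen and secretory genes in osteoblasts. It lies on chromosome 3 between 80892435 and 80933283 on the minus strand (ENSRNOG00000005413, in the coordinates of the deposited table, whose build is not given in the sources used here). It was at 173, 168 and 161 CPM in the Mg-ALN@Gel libraries, 44.1, 106 and 78.0 CPM in the ALN+Gel libraries and 256, 201 and 200.5 CPM in the Gel libraries. The 3 groups did not overlap in any pair, and the Mg-ALN@Gel libraries stood in between and close together (167 ± 6.10 CPM, SD, n = 3). ALN+Gel averaged 76.0 ± 30.9 CPM and Gel 219 ± 31.9 CPM (n = 3 each). Its log2 fold change in Mg-ALN@Gel relative to ALN+Gel was 1.14 (SE 0.30), with an adjusted p of 0.496 by edgeR's quasi-likelihood test and of 0.0456 by DESeq2, both adjusted by the Benjamini-Hochberg method over all genes. Both p-values reuse the ALN+Gel libraries whose low values chose Creb3l1, so neither is independent of the choice. Without ALN+Gel library 1 the log2 fold change was 0.86. Against Gel, Mg-ALN@Gel had a log2 fold change of −0.39 (95% interval −1.06 to 0.28, edgeR adjusted p 0.671). In ALN+Gel against Gel, given as a description, the log2 fold change was −1.53 (SE 0.30).

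The genes that act on the chain inside the endoplasmic reticulum come next. P4ha1 encodes a catalytic subunit of prolyl 4-hydroxylase, which stabilises the triple helix (chromosome 20, 28920616 to 28971966, plus strand, ENSRNOG00000050655). It was at 105, 110.4 and 151 CPM in Mg-ALN@Gel, 61.4, 92.9 and 132 CPM in ALN+Gel and 135, 214 and 132 CPM in Gel. The ranges of Mg-ALN@Gel and ALN+Gel overlapped, and so did those of Mg-ALN@Gel and Gel. Gel library 2 was well above the other Gel libraries. The log2 fold change was 0.35 in Mg-ALN@Gel relative to ALN+Gel (SE 0.32, edgeR adjusted p 0.751), and with library 1 or library 3 of ALN+Gel left out it was 0.11 or 0.68. Against Gel it was −0.39 (edgeR adjusted p 0.691), and −0.15 without Gel library 2.

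Plod2 encodes lysyl hydroxylase 2, which hydroxylates telopeptide lysines and thereby sets the type of crosslink that forms later (chromosome 8, 99977334 to 100059736, plus strand, ENSRNOG00000030183). It was at 373, 462 and 537 CPM in Mg-ALN@Gel, 225, 356 and 449.9 CPM in ALN+Gel and 874, 506 and 419 CPM in Gel. All 3 groups overlapped, and Gel library 1 stood far above the rest. Plod2 had a log2 fold change of 0.41 in Mg-ALN@Gel relative to ALN+Gel (SE 0.36, edgeR adjusted p 0.735), and with library 1 or library 3 of ALN+Gel left out it was 0.18 or 0.67. Against Gel it was −0.39 (edgeR adjusted p 0.716), and −0.02 without Gel library 1.

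Serpinh1 encodes HSP47, the chaperone that binds folded procollagen in the endoplasmic reticulum (chromosome 1, 164301010 to 164308317, minus strand, ENSRNOG00000016831). It was at 2168, 2027 and 1909 CPM in Mg-ALN@Gel, 781, 911 and 1305 CPM in ALN+Gel and 2066, 1949.9 and 1517 CPM in Gel. All 3 ALN+Gel libraries lay below all 6 others, while Mg-ALN@Gel and Gel overlapped. Serpinh1 averaged 2035 ± 129 CPM in Mg-ALN@Gel, 999 ± 273 CPM in ALN+Gel and 1844 ± 289.6 CPM in Gel (SD, n = 3 each). Mg-ALN@Gel had 2.04 times the ALN+Gel level (log2 fold change 1.03, SE 0.30), with an adjusted p of 0.496 by edgeR and 0.00957 by DESeq2. Both p-values reuse the ALN+Gel libraries whose low values chose Serpinh1, so neither is independent of the choice. Without ALN+Gel library 1 the log2 fold change was 0.87. In Mg-ALN@Gel against Gel it was 0.14 (95% interval −0.52 to 0.81, edgeR adjusted p 0.888), and in ALN+Gel against Gel, given as a description, −0.88 (SE 0.30).

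Fkbp10 encodes FKBP65, a prolyl isomerase of the endoplasmic reticulum that also supports lysyl hydroxylation by lysyl hydroxylase 2 (chromosome 10, 88326080 to 88338207, plus strand, ENSRNOG00000015941). It was at 373, 377 and 298 CPM in Mg-ALN@Gel, 181, 218 and 306 CPM in ALN+Gel and 535, 321 and 293 CPM in Gel. Only ALN+Gel library 3 reached the range of the other groups. The log2 fold change of Fkbp10 was 0.57 in Mg-ALN@Gel relative to ALN+Gel (SE 0.30, edgeR adjusted p 0.599) and −0.13 against Gel (edgeR adjusted p 0.898).

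The locus matched to Crtap encodes cartilage-associated protein, the partner of prolyl 3-hydroxylase 1 in the complex that modifies a single proline of each collagen I chain (Crtapl1, ENSRNOG00000009878, chromosome 8, 122382617 to 122402197, minus strand). A second locus of the same name held 112 counts in all, against 9945 for the one used, and reads shared between them are uncertain. Crtap was at 128, 87.7 and 60.2 CPM in Mg-ALN@Gel, 27.4, 58.8 and 52.4 CPM in ALN+Gel and 84.8, 66.7 and 86.3 CPM in Gel. ALN+Gel lay below both other groups, by a narrow margin to Mg-ALN@Gel library 3. The log2 fold change of Crtap in Mg-ALN@Gel relative to ALN+Gel was 0.99 (SE 0.35, edgeR adjusted p 0.496, DESeq2 adjusted p 0.197), and against Gel it was 0.21 (edgeR adjusted p 0.847). P3h1, which encodes that partner and was named after its values were seen, averaged 151 ± 15.9 CPM in Mg-ALN@Gel, 77.6 ± 15.2 CPM in ALN+Gel and 142 ± 45.5 CPM in Gel. Ppib, which encodes cyclophilin B, the third protein of the complex, averaged 469 ± 169 CPM in Mg-ALN@Gel, 355 ± 13.7 CPM in ALN+Gel and 337 ± 40.4 CPM in Gel. Between ALN+Gel and Gel, P3h1 thus had a log2 fold change of −0.87 and Ppib of 0.07, and neither passed edgeR's adjusted threshold.

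Of the export genes, Sec24d encodes a cargo-binding subunit of the COPII coat (chromosome 2, 227455722 to 227562319, plus strand, ENSRNOG00000014872). It was at 80.9, 128 and 133 CPM in Mg-ALN@Gel, 50.6, 77.9 and 120.4 CPM in ALN+Gel and 146, 135 and 122 CPM in Gel. ALN+Gel stayed below Gel, with library 3 just under the lowest Gel library, and Mg-ALN@Gel overlapped both groups. Sec24d had a log2 fold change of 0.45 in Mg-ALN@Gel relative to ALN+Gel (SE 0.32, edgeR adjusted p 0.686), and with library 1 or library 3 of ALN+Gel left out it was 0.19 or 0.84. Against Gel it was −0.24 (edgeR adjusted p 0.817), and −0.04 without Mg-ALN@Gel library 1.

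The locus matched to Mia3 encodes TANGO1, the receptor that loads procollagen into COPII carriers (AABR07021988.1, ENSRNOG00000059202, chromosome 13, 101727935 to 101761541, minus strand). It was at 55.8, 66.4 and 75.3 CPM in Mg-ALN@Gel, 50.3, 67.2 and 80.6 CPM in ALN+Gel and 120.5, 92.8 and 95.2 CPM in Gel. The Mg-ALN@Gel and ALN+Gel libraries were interleaved, and all 6 lay below the 3 Gel libraries. Mia3 had a log2 fold change of −0.00 in Mg-ALN@Gel relative to ALN+Gel (95% interval −0.52 to 0.51, edgeR adjusted p 0.996), a value whose sign turned under several other settings. In Mg-ALN@Gel against Gel it was −0.64 (SE 0.23, edgeR adjusted p 0.530, unadjusted p 0.0208), and in ALN+Gel against Gel it was also −0.64. Both comparisons share the Gel libraries.

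Outside the cell, Bmp1 encodes the metalloproteinase that removes the C-propeptide of procollagen and also activates the lysyl oxidase precursor (chromosome 15, 52166401 to 52210746, minus strand, ENSRNOG00000010890). It was at 225, 304 and 282 CPM in Mg-ALN@Gel, 178, 170.0 and 224 CPM in ALN+Gel and 459.5, 311 and 324 CPM in Gel. The 3 groups did not overlap, although library 3 of ALN+Gel nearly met library 1 of Mg-ALN@Gel. Bmp1 averaged 270.2 ± 40.9 CPM in Mg-ALN@Gel, 191 ± 29.2 CPM in ALN+Gel and 365 ± 82.3 CPM in Gel (SD, n = 3 each). The log2 fold change was 0.50 in Mg-ALN@Gel relative to ALN+Gel (SE 0.24, edgeR adjusted p 0.569) and −0.43 against Gel (SE 0.24, edgeR adjusted p 0.575). Each p-value reuses libraries by which Bmp1 was chosen, so neither is independent of the choice. In ALN+Gel against Gel, given as a description, the log2 fold change was −0.94 (SE 0.24).

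Lox encodes lysyl oxidase, which oxidises lysines so that fibrils can crosslink (chromosome 18, 47500330 to 47577819, minus strand, ENSRNOG00000014426). It was at 569, 1219.7 and 645 CPM in Mg-ALN@Gel, 29.2, 424 and 355 CPM in ALN+Gel and 364, 725 and 799.7 CPM in Gel. ALN+Gel library 1 was far below every other library, and Mg-ALN@Gel library 2 stood 41.7 times above it. Mg-ALN@Gel did not overlap ALN+Gel, and Gel library 1 fell within the range of ALN+Gel. The biological coefficient of variation of Lox was 65.2%, against 26.2% to 35.3% for the other 9 loci and a median of 39.4% over all tested genes. The log2 fold change of Lox in Mg-ALN@Gel relative to ALN+Gel was 1.59 (95% interval −0.20 to 3.38, edgeR adjusted p 0.575), and without ALN+Gel library 1 it was 1.06. Against Gel, Mg-ALN@Gel had a log2 fold change of 0.36 (edgeR adjusted p 0.890). For ALN+Gel against Gel it was −1.23 (SE 0.78), and −0.69 without ALN+Gel library 1.

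**Figure D2:**
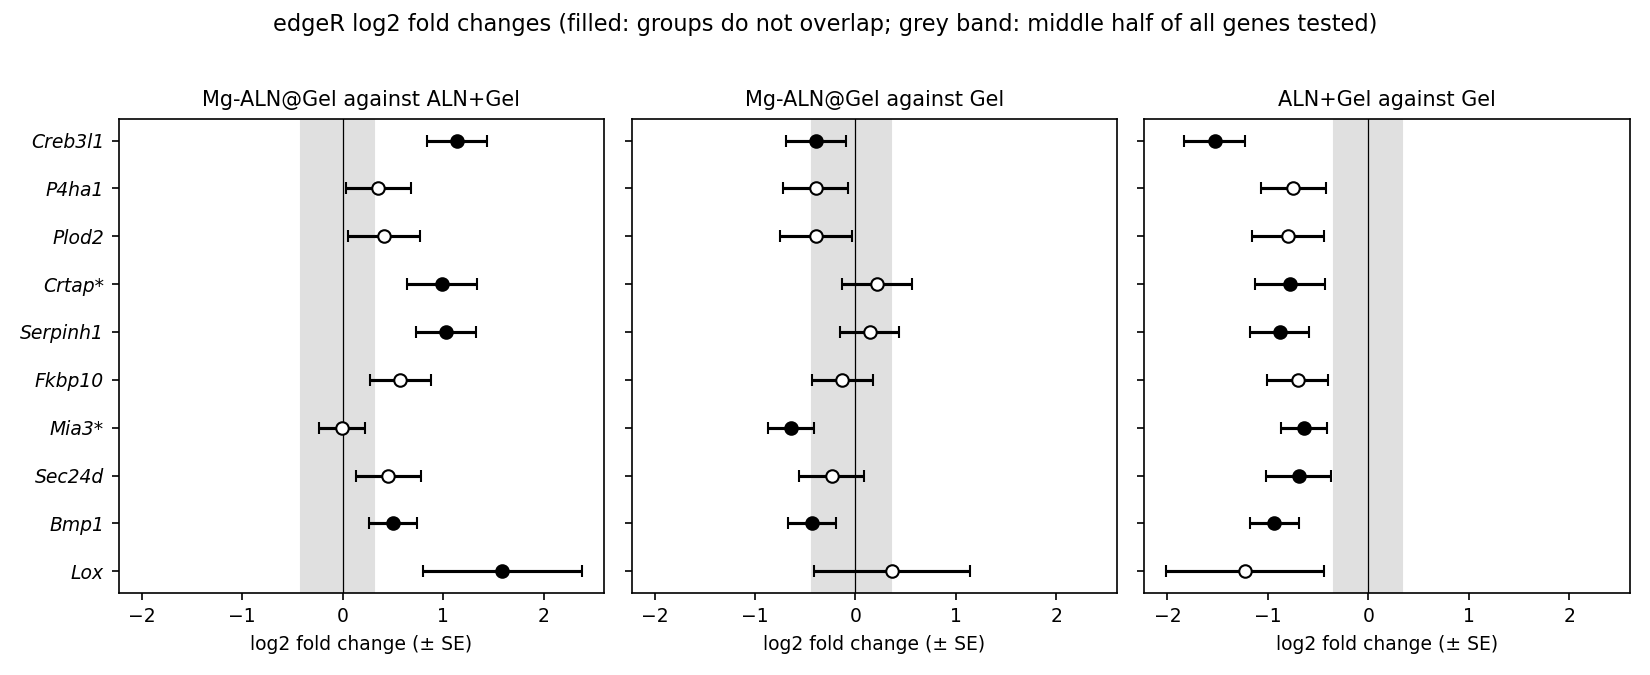
Log2 fold changes of the 10 loci with their SE (horizontal axis) in the 3 comparisons, filled where the libraries of the groups did not overlap; the grey band holds the middle 50% of all tested genes. Values in Mg-ALN@Gel relative to ALN+Gel run from −0.00 for Mia3 to 1.59 for Lox, and in ALN+Gel against Gel all 10 are negative. The set was chosen for low ALN+Gel values.

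Taken as a group, all 8 genes matched by name had a positive log2 fold change in Mg-ALN@Gel relative to ALN+Gel, and 46.4% of all tested genes did. Their median was 0.54, beside a median of −0.04 over all genes. In 4 of the 8 (Creb3l1, Serpinh1, Bmp1 and Lox) every Mg-ALN@Gel library was above every ALN+Gel library, as for 6.76% of all genes. None of the 8 passed edgeR's adjusted threshold of 0.05, and neither did any other of the 15460 genes (0%). At an unadjusted p under 0.05, edgeR gave 2 of the 8, against 9.19% of all genes. DESeq2 called 2 of the 8, Creb3l1 and Serpinh1, against 1.14% of all genes. The set was chosen for low values in these 3 ALN+Gel libraries, so neither these counts nor the direction is independent of the choice. Both genes called by DESeq2 and 3 of the 4 without overlap are among the 3 whose low ALN+Gel values chose the set. The 5 members other than Creb3l1, Serpinh1 and Bmp1 had a median of 0.45, with 0 called by DESeq2, 0 at an unadjusted p under 0.05 by edgeR and 1 without overlap (Lox). With Mia3 and Crtap included, 9 of 10 were positive and the median stayed at 0.54.

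When Mg-ALN@Gel was set against Gel, 6 of the 8 genes were negative and 2 were positive (Serpinh1 and Lox), where 52.2% of all genes were negative. Their median was −0.31, beside −0.03 over all genes. Creb3l1 and Bmp1 did not overlap and were lower, as were 8.56% of all genes. edgeR called none of the 8 after adjustment and none of all genes (0%). At an unadjusted p under 0.05 it gave none of the 8, against 9.31% of all genes. DESeq2 called none of the 8, against 0.325% of all genes. The libraries of this comparison may also have served the choice.

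In ALN+Gel against Gel, all 8 genes were negative, where 50.2% of all genes were. Their median was −0.84, beside −0.00142 over all genes. These values are a description, because low ALN+Gel values chose the set. Creb3l1, Serpinh1, Sec24d and Bmp1 did not overlap between the groups, as for 5.03% of all genes that were lower in this way. Over all genes edgeR called 0 (0%), with 8.2% at an unadjusted p under 0.05, and DESeq2 called 0.959%.

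**Figure D3:**
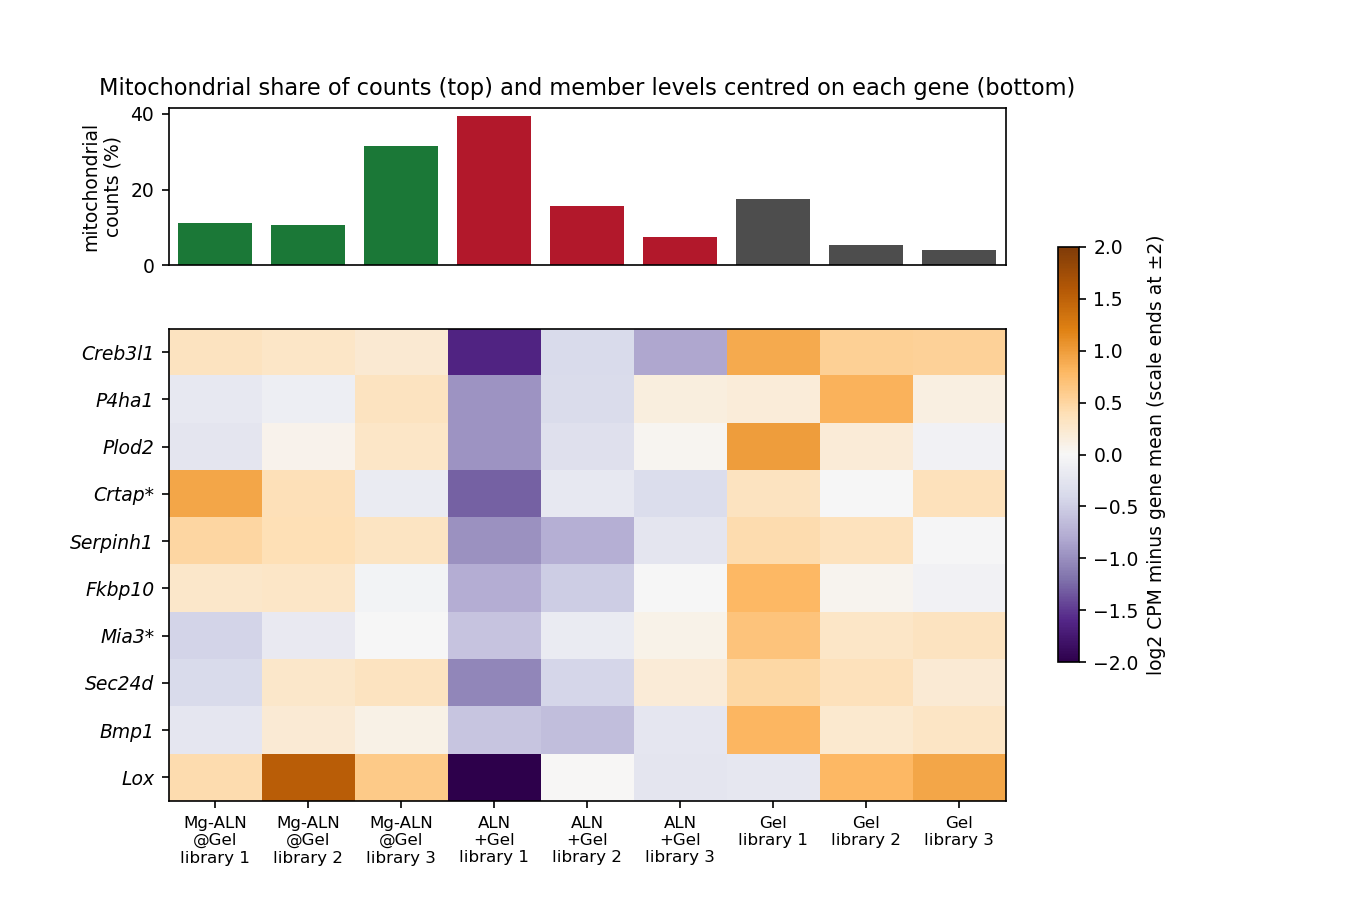
Share of counts from mitochondrially encoded genes in each library (top, percent) above the log2 CPM of the 10 loci centred on each gene (bottom, colour ends at ±2, rows are genes, columns are libraries). The mitochondrial share is highest in ALN+Gel library 1 (39.5%), which is also the lowest of its group for 9 of the 10 loci; the part of that share in the member levels was not tested.

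Over the 9 libraries, the log2 CPM of the 8 genes had a positive r in all 28 pairs, between 0.493 for Bmp1 with Lox and 0.886 for Plod2 with Sec24d with a median of 0.760. Without ALN+Gel library 1, over 8 libraries, 26 of the 28 pairs had a positive r, between −0.23 and 0.85 with a median of 0.50, so much of the shared variation rested on that library. These values describe libraries that share group, depth and composition. A set score, the mean log2 CPM of the 8 genes centred on each gene, was 0.06, 0.37 and 0.27 in Mg-ALN@Gel, −1.35, −0.42 and −0.15 in ALN+Gel, against 0.54, 0.42 and 0.24 in Gel. All ALN+Gel libraries were below all others, and libraries 1 to 3 of that group were spread more widely than those of the other groups.

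Among 10586 other protein-coding genes with a mean of at least 5 CPM, the one most like the set score was Snai1, which encodes a transcription factor known from epithelial to mesenchymal transition (r = 0.958 over 9 libraries, Spearman's rho 0.95). Snai1 averaged 82.3 CPM in Mg-ALN@Gel, 54.8 CPM in ALN+Gel and 102 CPM in Gel. Without ALN+Gel libraries 1 and 2, the libraries farthest from the median score, r was 0.889. Lrrc75b (0.953), Kif3c (0.947), Aldh1l2 (0.946) and Tmem184b (0.941) followed, and for Lrrc75b r was 0.588 without those libraries. For Creb3l1 alone the most alike genes were Snai1, Pdgfa and Olfml3, each with r close to 0.925. Without ALN+Gel libraries 1 and 3, r with Creb3l1 was 0.853 for Snai1, 0.636 for Pdgfa and 0.672 for Olfml3.

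The cargo of this route also differed between libraries. Together, Col1a1, Col1a2 and Col3a1, the chains of types I and III collagen, took 46164, 52791 and 49414 CPM in Mg-ALN@Gel, 12552, 28493 and 50414 CPM in ALN+Gel and 106679, 58307 and 65583 CPM in Gel. ALN+Gel library 3 thus held collagen RNA within the range of Mg-ALN@Gel, and all Gel libraries held more than any other library. Per 1000 counts of these 3 collagens, the 8 genes together had 88.1, 90.8 and 83.3 counts in Mg-ALN@Gel, 123, 82.7 and 58.9 counts in ALN+Gel, against 45.3, 74.8 and 58.0 in Gel. On this scale Mg-ALN@Gel lay above Gel without overlap, and ALN+Gel overlapped both. The higher collagen sum of every Gel library by itself raises this ratio in Mg-ALN@Gel against Gel. How many of all genes separate in this way was not counted. Serpinh1 weighed most in the sum of the 8, with 2168 of 4065 CPM in Mg-ALN@Gel library 1.

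**Figure D4:**
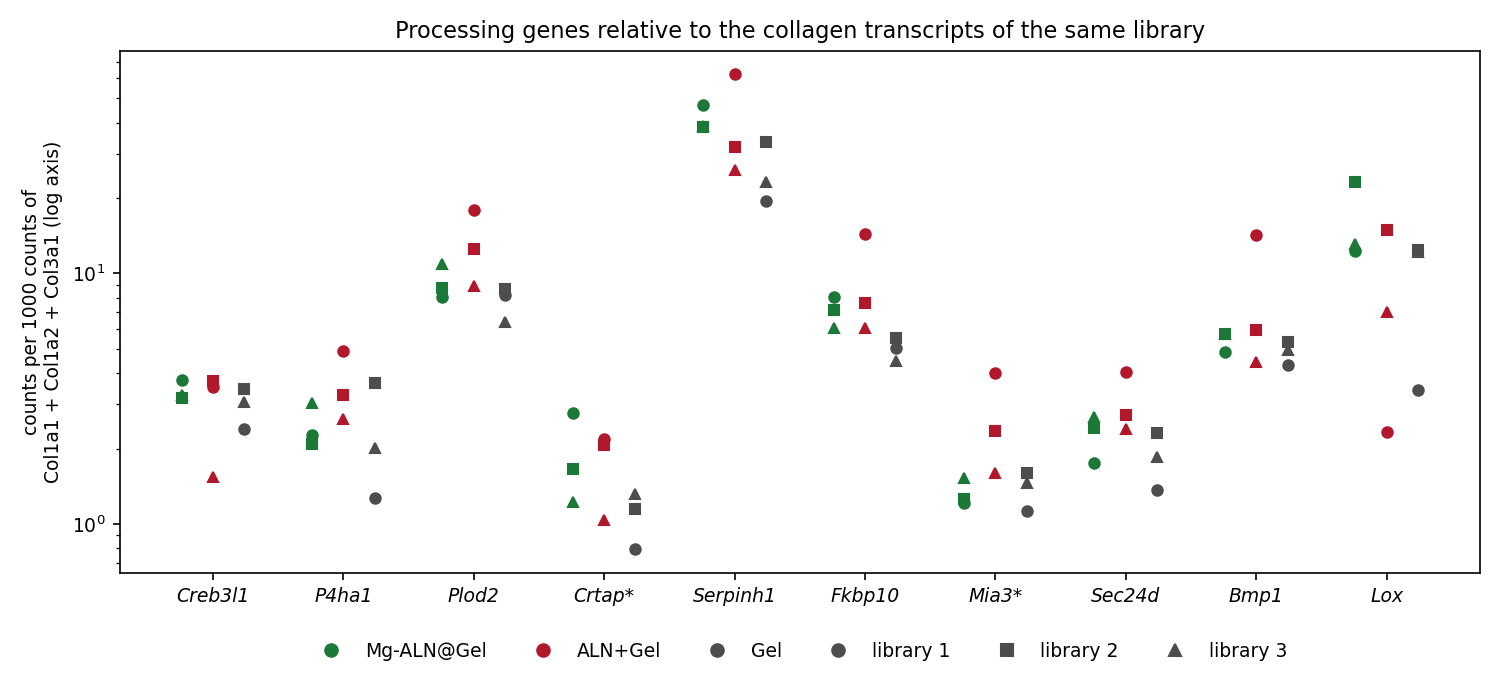
Counts of each of the 10 loci per 1000 counts of Col1a1, Col1a2 and Col3a1 in the same library (vertical log axis), by group (colour, Mg-ALN@Gel at the left of each gene) and library (symbol). Serpinh1 lies between 38.4 and 47.0 in Mg-ALN@Gel, between 25.9 and 62.2 in ALN+Gel and between 19.4 and 33.4 in Gel.

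Relative to collagen, Serpinh1 averaged 41.3 ± 4.87 counts per 1000 in Mg-ALN@Gel and 25.3 ± 7.29 in Gel (SD, n = 3 each), without overlap. Fkbp10 averaged 7.09 ± 1.02 in Mg-ALN@Gel and 5.00 ± 0.524 in Gel, also without overlap. Both are given as a description, because the share of all genes that separate on this scale was not counted. The collagen sum itself differed between groups, by −0.59 on the log2 scale in Mg-ALN@Gel against Gel and by 0.91 in Mg-ALN@Gel relative to ALN+Gel, and it was lowest in ALN+Gel. Dividing by it shifts every gene by that amount. All 8 genes were positive on this scale in Mg-ALN@Gel against Gel, as were 78.8% of all tested genes, and their median of 0.29 was below the 0.55 of all genes. For Mg-ALN@Gel against ALN+Gel the median log2 difference of the ratio was −0.36 with 3 of 8 genes positive, where 9.38% of all genes were positive with a median of −0.98. No gene was free of overlap, and without ALN+Gel library 1 the median of the 8 was 0.06, so that its direction rested on that library. In ALN+Gel against Gel 6 of 8 genes were positive, where 96.8% of all genes were, with a median of 0.65 beside 1.497 over all genes, and of 0.40 without ALN+Gel library 1. Creb3l1 (−0.11) and Lox (−0.36) were the exceptions. No test was made of these ratios.

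Other genes of the route were taken from lists that hold none of the members. By edgeR no gene of these pathway lists passed the adjusted threshold in any comparison, and DESeq2 called some fibrillar collagens alone. At an unadjusted p under 0.05, edgeR gave 4 genes higher and 1 lower among the hydroxylation and folding enzymes in Mg-ALN@Gel relative to ALN+Gel, 2 higher among cleavage and crosslinking genes, 1 higher among COPII genes and 1 lower among fibrillar collagens. For Mg-ALN@Gel against Gel it gave 2 lower COPII genes, 1 lower collagen and 3 higher general chaperones. For ALN+Gel against Gel it gave 3 lower hydroxylation and folding enzymes, 1 lower COPII gene, 2 lower cleavage and crosslinking genes, 2 lower collagens and 2 higher general chaperones. Beside these counts stand the shares of all genes at that p in each comparison, 9.19%, 9.31% and 8.2% in the same order, and several of the counts are at or below them. Hydroxylation and folding enzymes numbered 16, and 12 of them were positive in Mg-ALN@Gel relative to ALN+Gel (median 0.46). Their most abundant member, P4hb, the shared subunit of prolyl 4-hydroxylase and a disulfide isomerase, averaged 1318 ± 109 CPM in Mg-ALN@Gel, 1138 ± 248 CPM in ALN+Gel and 1155 ± 181 CPM in Gel. P3h3, a prolyl 3-hydroxylase family member, averaged 204 ± 87.2 CPM in Mg-ALN@Gel, 112 ± 36.3 CPM in ALN+Gel and 166 ± 18.3 CPM in Gel. Of the 16, 12 were negative in ALN+Gel against Gel (median −0.34), and in Mg-ALN@Gel against Gel 9 were positive (median 0.07).

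The 16 tested genes of the COPII coat and its cargo receptors had medians of 0.05 in Mg-ALN@Gel relative to ALN+Gel, −0.21 in Mg-ALN@Gel against Gel and −0.17 in ALN+Gel against Gel. Sar1a, the GTPase that starts coat assembly, averaged 380.0 ± 15.0 CPM in Mg-ALN@Gel, 295 ± 13.1 CPM in ALN+Gel and 304 ± 13.1 CPM in Gel. Sec13, an outer coat subunit, averaged 84.6 ± 0.950 CPM in Mg-ALN@Gel, 58.1 ± 6.83 CPM in ALN+Gel and 63.6 ± 13.4 CPM in Gel. For both genes every Mg-ALN@Gel library was above all 6 others, and neither passed edgeR's adjusted threshold (adjusted p between 0.497 and 0.576). How many of all genes stood in this way was not counted. Kdelr2, a receptor that returns resident proteins to the endoplasmic reticulum, averaged 146 ± 19.3 CPM in Mg-ALN@Gel, 116 ± 30.1 CPM in ALN+Gel and 159 ± 32.6 CPM in Gel. In Mg-ALN@Gel against Gel, 4 of the 16 COPII genes were lower without overlap, as were 8.56% of all genes. These were Sec24a, Sec24b, Sec31a and Sec16a, named after their values were seen, and none passed edgeR's adjusted threshold.

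Of the 10 propeptide cleavage and crosslinking genes tested, 8 were positive in Mg-ALN@Gel relative to ALN+Gel (median 0.77) and all 10 were negative in ALN+Gel against Gel (median −0.93), while in Mg-ALN@Gel against Gel the median was 0.08. Pcolce, the enhancer of procollagen C-proteinase and so a partner of Bmp1, averaged 602 ± 236 CPM in Mg-ALN@Gel, 311 ± 91.6 CPM in ALN+Gel and 592 ± 104 CPM in Gel. Its edgeR adjusted p was 0.496 in Mg-ALN@Gel relative to ALN+Gel, in which the libraries did not overlap. The lysyl oxidase relatives Loxl1 (182 ± 128 CPM in Mg-ALN@Gel, 168 ± 59.1 CPM in ALN+Gel and 173 ± 40.3 CPM in Gel) and Loxl2 (106 ± 69.0 CPM in Mg-ALN@Gel, 74.4 ± 87.7 CPM in ALN+Gel and 91.2 ± 45.6 CPM in Gel) varied widely within groups. Their mean levels were closer between groups than those of Lox.

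The other membrane-bound transcription factors and their activating proteases are given as list medians. Such medians cannot be set against Creb3l1, a single gene chosen for its values. For the 6 tested the medians were −0.13 in Mg-ALN@Gel relative to ALN+Gel, −0.09 in Mg-ALN@Gel against Gel and −0.14 in ALN+Gel against Gel. In Mg-ALN@Gel against Gel 3 of the 6 were positive and 3 negative. Creb3l2 (−0.70, SE 0.51) and Atf6 (−0.64, SE 0.38), named after their values were seen, were the most negative of the 6 there. In Mg-ALN@Gel relative to ALN+Gel they had log2 fold changes of −0.54 and −0.31. Creb3, a relative of Creb3l1, averaged 53.6 ± 2.63 CPM in Mg-ALN@Gel, 45.0 ± 3.34 CPM in ALN+Gel and 50.1 ± 2.36 CPM in Gel. Mbtps1, which encodes the site-1 protease that cuts these factors, averaged 109.6 ± 21.8 CPM in Mg-ALN@Gel, 122 ± 15.6 CPM in ALN+Gel and 133 ± 12.8 CPM in Gel. General chaperones of the endoplasmic reticulum had medians of 0.10 in Mg-ALN@Gel relative to ALN+Gel, 0.22 in Mg-ALN@Gel against Gel and −0.02 in ALN+Gel against Gel over 15 genes. In Mg-ALN@Gel against Gel 12 of the 15 were positive, where 52.2% of all genes were negative. Calr averaged 1035 ± 160 CPM in Mg-ALN@Gel, 1114 ± 226 CPM in ALN+Gel and 797 ± 149 CPM in Gel. Pdia3 averaged 714 ± 34.7 CPM in Mg-ALN@Gel, above both other groups without overlap (591 ± 36.0 CPM in ALN+Gel and 599 ± 46.0 CPM in Gel). Hspa5, which encodes the chaperone BiP, averaged 623 ± 148 CPM in Mg-ALN@Gel, 565 ± 58.1 CPM in ALN+Gel and 602 ± 170.4 CPM in Gel. The 12 hypoxia response genes had medians of 0.49 in Mg-ALN@Gel relative to ALN+Gel, 0.15 in Mg-ALN@Gel against Gel and −0.09 in ALN+Gel against Gel.

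**Figure D5:**
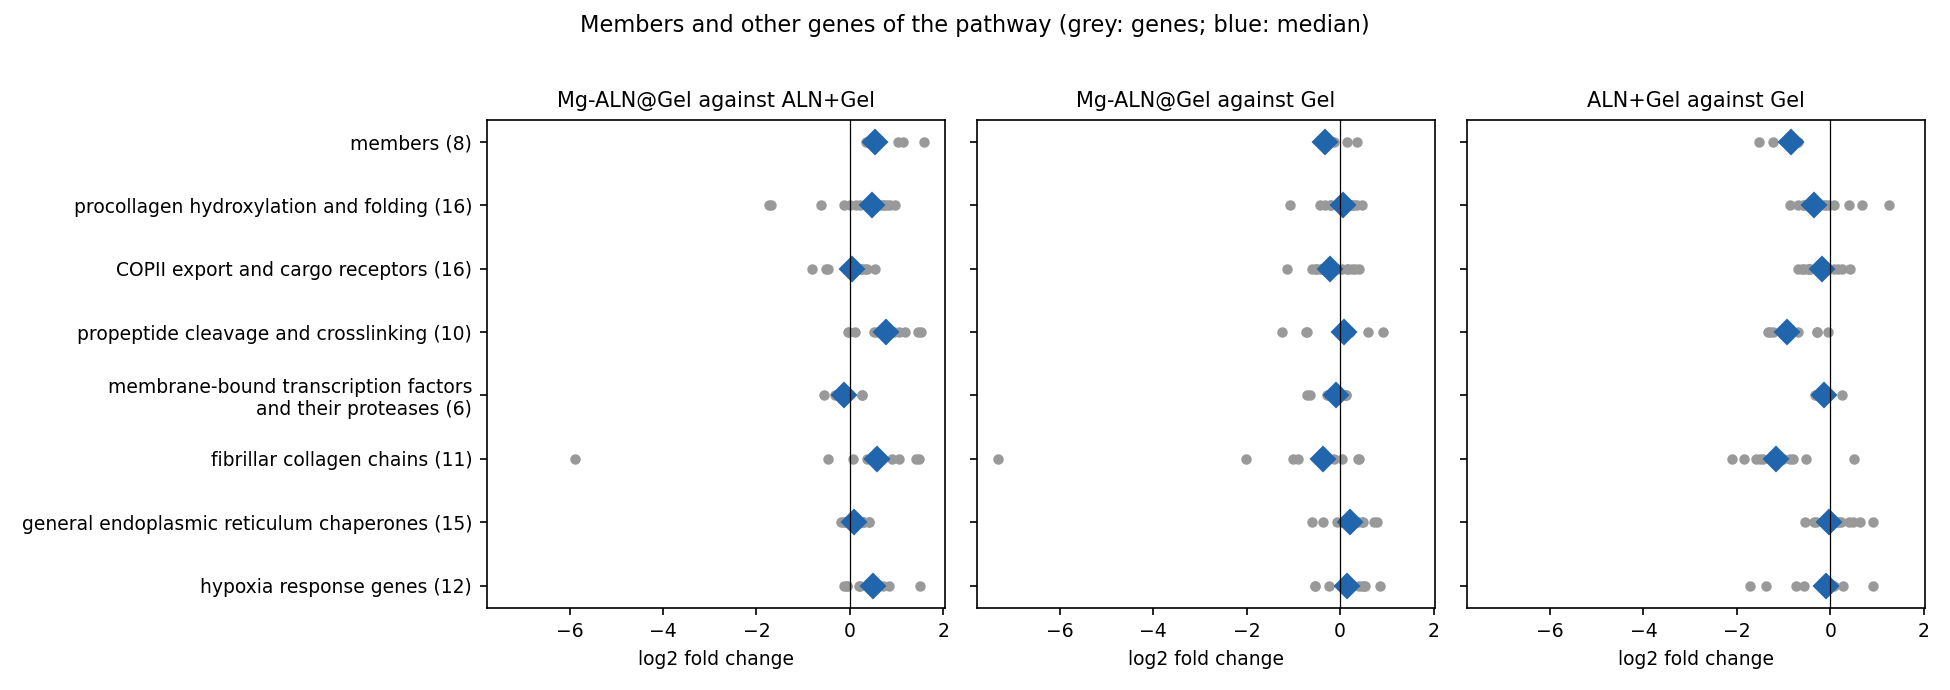
Log2 fold changes (horizontal axis) of the genes matched by name and of 7 other lists in the 3 comparisons, with each gene as a grey point and the list median as a blue diamond. For Mg-ALN@Gel against ALN+Gel the medians are 0.54 for the members, 0.77 for cleavage and crosslinking and 0.05 for COPII export.

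Fibrillar collagen chains numbered 11, of which 10 were negative in ALN+Gel against Gel (median −1.17), 9 were positive in Mg-ALN@Gel relative to ALN+Gel (median 0.57) and 8 were negative in Mg-ALN@Gel against Gel (median −0.37). Of all genes, 50.2%, 46.4% and 52.2% had these directions, in the same order. DESeq2 called 2 of the 11 in ALN+Gel against Gel, Col1a1 and Col11a1, both lower in ALN+Gel, against 0.959% of all genes. In each other comparison it called 1, Col2a1 of cartilage, lower in Mg-ALN@Gel. The shares of all genes there were 1.14% relative to ALN+Gel and 0.325% against Gel. Col2a1 was near the floor in Mg-ALN@Gel (0.732 ± 0.376 CPM), and its libraries overlapped between Mg-ALN@Gel and Gel (117 ± 164 CPM). Col1a1 averaged 30249 ± 3447 CPM in Mg-ALN@Gel, 20358 ± 9235 CPM in ALN+Gel and 61107 ± 31773 CPM in Gel. Its SD in Gel came largely from library 1, which of all libraries also held the most Creb3l1, Plod2, Fkbp10, Mia3, Sec24d and Bmp1.

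Among the summed osteoblast, fibroblast and osteoclast markers, only the osteoclast sums set ALN+Gel apart from both other groups. The 10 osteoblast markers, none at 0 in any library, summed to 3484 to 7827 CPM in Mg-ALN@Gel, 5659 to 13850 CPM in ALN+Gel and 3623 to 11972 CPM in Gel. Spp1 and Ibsp made up most of each group's sum. By gene, 8 of 10 were lower in Mg-ALN@Gel relative to ALN+Gel (median −0.65), all 10 were lower in Mg-ALN@Gel than in Gel (median −1.13) and 7 of 10 were lower in ALN+Gel than in Gel (median −0.62), with none past edgeR's adjusted threshold. The 8 fibroblast markers, also detected in every library, summed to 5453 to 9302 CPM in Mg-ALN@Gel, 1957 to 5571 CPM in ALN+Gel and 4301 to 6758 CPM in Gel. ALN+Gel library 1 had the lowest fibroblast sum. By gene, 7 of 8 were higher in Mg-ALN@Gel relative to ALN+Gel (median 0.88) and 5 of 8 in Mg-ALN@Gel than in Gel (median 0.39). In ALN+Gel against Gel 6 of 8 were lower (median −0.45). Fap, named after its values were seen, was highest in ALN+Gel (160 ± 32.7 CPM, against 81.7 ± 29.5 CPM in Mg-ALN@Gel and 91.3 ± 34.5 CPM in Gel). None of the 8 passed edgeR's adjusted threshold. The 10 osteoclast markers summed to 3687 to 12206 CPM in Mg-ALN@Gel, 21295 to 31113 CPM in ALN+Gel and 2171 to 18015 CPM in Gel, with Dcstamp at 0 in all but 2 ALN+Gel libraries. All 3 ALN+Gel libraries were thus above all others in osteoclast markers and below all others in the member score. Other marker sums also varied between libraries. Skeletal muscle markers summed to 9835 CPM in Gel library 3 and to 75.5 to 2113 CPM elsewhere. Neutrophil markers reached 8148 CPM in Mg-ALN@Gel library 1, and erythroid markers ran from 213 to 8704 CPM. The part of cell makeup in the member results was not tested.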

How the data were processed

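Poly-A RNA of 9 libraries was sequenced, and groups and replicate numbers were read from the sample titles. The authors deposited whole-number read counts per gene without normalization and FPKM values. Each FPKM value equalled the count divided by gene length and by a constant per library of 0.804 to 1.19 times the column total. The tools listed in the submitters' processing notes, without roles, are HISAT2 2.0.5, fastp, featureCounts 1.5.0-p3, StringTie 1.3.3b, edgeR 3.22.5 and DESeq2 1.20.0. The build is not given in the sources used here, and strand marking is not mentioned. Lox overlaps Znf474 (6 counts in all) on the other strand.

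The main test was edgeR 4.0.16 in R 4.3.3 (filterByExpr, TMM, quasi-likelihood fit over all 9 libraries with a coefficient per group), which left 15460 genes. Two-sided p-values were adjusted over all genes (Benjamini-Hochberg), with a threshold of 0.05. The SE was taken as the log2 fold change over the root of its F statistic. DESeq2 1.42.0 and limma 3.58.1 were alternatives. The model was also run on simulated data with a smaller spread than these libraries and no outlying library. The common biological coefficient of variation here was 51.4%, so that run does not show how the model performs on these data. The log2 CPM values of scores and correlations had a prior count of 0.5. Intervals cover 95%. No 2 libraries agreed within sampling noise (lowest chi-square per degree of freedom 75.8).

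The members, lists and tests were chosen with earlier results of these data known. Text names the members, the 3 genes with the highest mean FPKM of a list where they are described, genes past the adjusted threshold, and the 5 genes most like the set score and 3 most like Creb3l1. Others are named as chosen after their values were seen: P3h1, Col11a1, Col2a1, Sec24a, Sec24b, Sec31a, Sec16a, Creb3l2, Atf6 and Fap. Of 168 list entries, 164 matched a gene. Same-numbered libraries of ALN+Gel and Gel deviated together (r = 0.341, 0.419 and 0.226), which met the limit of 0.1 for pairing. Those of Mg-ALN@Gel and ALN+Gel (r = 0.130, −0.120 and −0.127) and of Mg-ALN@Gel and Gel (r = −0.0767, −0.0452 and −0.199) did not.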

Additional observations from a re-analysis of the deposited data

How the results depend on the processing

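The median log2 fold change of the 8 genes kept its direction under every alternative run. Leaving out 1 library gave 0.43 to 0.83 in Mg-ALN@Gel relative to ALN+Gel, −0.40 to −0.10 in Mg-ALN@Gel against Gel and −1.11 to −0.63 in ALN+Gel against Gel. Counts over all genes depended on the tool, and the cause was not tested. DESeq2 called 175, 50 and 133 genes in these comparisons in the same order, where edgeR called 0 in each, and limma with voom quality weights called 2 in Mg-ALN@Gel relative to ALN+Gel and 263 in ALN+Gel against Gel. DESeq2 called 2 of the 8 genes in Mg-ALN@Gel relative to ALN+Gel, both chosen for low ALN+Gel values, and voom called 0 of the 8. Leaving out 1 library gave edgeR counts of 0 to 1 in ALN+Gel against Gel (1 without ALN+Gel library 3) and of 0 in both others. With the replicate block the medians were 0.53, −0.35 and −0.86 in the same order, and the block changed no call.

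Signs turned for Mia3 and P4ha1 in Mg-ALN@Gel relative to ALN+Gel and for Fkbp10, Serpinh1, Crtap and Lox in Mg-ALN@Gel against Gel, with main values between −0.13 and 0.36. Mia3 in Mg-ALN@Gel relative to ALN+Gel was 0.0206 with RLE scaling, 0.0190 with no filter on low counts, 0.0204 with DESeq2, 0.0428 with voom, 0.0346 with FPKM, 0.00188 with the replicate block, 0.0314 with nuclear genes only and −0.17 to 0.18 with 1 library left out. P4ha1 there was −0.0305 without the pair of libraries of highest mitochondrial share. In Mg-ALN@Gel against Gel, Fkbp10 was 0.0522 with voom and −0.31 to 0.18 with 1 library left out, Serpinh1 −0.00076 to 0.23, Crtap −0.10 to 0.44 and Lox −0.0881 to 0.57.

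Settings added after the data were seen concern overlap and the ratio to collagen. The genes without overlap in Mg-ALN@Gel relative to ALN+Gel numbered 4 to 8 with 1 library left out (8 without ALN+Gel library 3). In ALN+Gel against Gel they numbered 4 to 7 with 1 library left out (7 without Gel library 3 or ALN+Gel library 3) and 7 with nuclear genes only. The share of all genes without overlap was not counted under these settings. Groups separate more easily when a library is left out, so these counts cannot be set against the shares from all libraries. Groups of 3 libraries limit every statement here more than depth does.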
